A study of Homo sapiens with 15 samples.

Results

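Low-dose ascorbic acid (AA, vitamin C) was compared with no treatment in MT-2, an established line of CD4+ T cells transformed by the retrovirus HTLV-1 (human T-lymphotropic virus type 1). The comparison holds 6 of the 15 arrays of the series, namely the 3 arrays of cells given AA at 10 µg/ml for 48 hours and the 3 arrays of untreated cells kept for the same 48 hours. The study set AA beside interferon-α (IFN-α), and the other 9 arrays hold 3 each of an intermediate dose of AA at 50 µg/ml, a high dose at 100 µg/ml and IFN-α2A at 1000 IU/ml. Each of 3 experiments contained all 5 conditions, so every treated array had an untreated partner. Experiments 2 and 3 carry the same date in the labels, with a different letter, and experiment 1 carries another date, so how independent experiments 2 and 3 are is not known. All cells grew in the same RPMI medium with foetal calf serum and gentamicin. MT-2 is a single line, and the values describe that line alone. The measure is the log2 level of a transcript cluster, the probes that this Affymetrix array pools for a gene, and a difference of 1 is a doubling.

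Ascorbate is a water-soluble antioxidant that cells take up through the sodium-dependent transporters SLC23A1 and SLC23A2. Its oxidised form enters through glucose transporters such as SLC2A1 and SLC2A3 and is reduced again inside the cell. Ascorbate keeps the iron of a large family of dioxygenases reduced, among them the prolyl hydroxylases that mark the hypoxia-inducible factors for destruction, collagen hydroxylases, and histone and DNA demethylases. In culture medium it can also react with metal ions and form hydrogen peroxide.

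The sequences of 3 genes that recur below are shown first. CCL1, a chemokine that T cells secrete and that binds the receptor CCR8, had the largest mean rise in value of any cluster. The 250 bases before its start site lie at chr17:34363234-34363483 on the minus strand (RefSeq, GRCh38.p14), and the capitals mark a match to the NF-kB consensus that begins 200 bases before the start.
CCL1: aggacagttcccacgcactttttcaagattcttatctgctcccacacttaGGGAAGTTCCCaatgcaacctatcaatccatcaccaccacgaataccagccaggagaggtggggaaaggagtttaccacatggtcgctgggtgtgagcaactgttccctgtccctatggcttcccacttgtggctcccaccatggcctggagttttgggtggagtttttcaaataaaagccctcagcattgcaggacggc
The match was found on both strands, with overlapping hits. Searched on both strands, 11.8% of 27305 genes with a promoter window held the consensus in at least 1 window, as did 5 of 13 chemokine genes. ASNS, asparagine synthetase, a target of the transcription factor ATF4, was lower by nearly the same amount in every experiment. The 150 bases before its start lie at chr7:97872409-97872558 on the minus strand, and the capitals mark a match to TGATGNAA, the core of the C/EBP-ATF response element, that begins 68 bases before the start.
ASNS: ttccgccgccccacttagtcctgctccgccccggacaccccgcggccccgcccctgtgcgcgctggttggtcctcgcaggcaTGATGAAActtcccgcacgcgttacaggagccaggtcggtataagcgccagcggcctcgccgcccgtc
On both strands together this motif stood in 3.89% of genes with a window and in 8 of the 37 such genes of the ATF4 list. MIR186, a microRNA gene, was lower in each experiment. One of its mature products lies at chr1:71067642-71067663 on the minus strand and is shown with the seed, bases 2 to 8, in capitals.
hsa-miR-186-3p: gCCCAAAGgugaauuuuuuggg

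The 6 arrays were alike in overall signal, with medians of 6.73 to 6.80 and a mean correlation of 0.993 to 0.994 with the other arrays of the series. High-dose replicate 3 stood apart (mean correlation 0.976). It enters the comparisons of the low dose with untreated cells and with the intermediate dose through the shared estimate of spread. It is also 1 of the 3 arrays behind every high-dose mean, median and difference below, unless it is said to be left out. Of 27 measured markers of HTLV-1-transformed T cells, 18 lay above the upper quartile of each of the 6 arrays, and ICOS, CCR8 and IL2 lay below the median of each. Of 24 genes of the T cell receptor complex and its signalling, 4 lay above the upper quartile and 12 below the median of each array, among the latter CD3D, CD3E, CD3G, CD247, CD5 and CD28, so the defining T cell receptor markers were low in this line in both conditions. Markers below the median numbered 5 of 5 for erythroid cells, 6 of 9 for monocytes, 5 of 10 for NK and cytotoxic cells, 5 of 10 for epithelial cells and fibroblasts and 3 of 9 for B cells. Above the upper quartile of each array lay the B cell marker CR2 and the NK and cytotoxic markers NCR1 and PRF1, and none of the erythroid, monocyte, epithelial or fibroblast markers. The median difference of these 5 lists between low-dose and untreated cells was 0.06 to 0.09, against 0.01 for all clusters, and their part in the results below was not tested.

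CCL1 (cluster 8014160) stood at 7.33, 9.37 and 9.40 in untreated cells of experiments 1, 2 and 3, and at 8.69, 10.84 and 10.97 in the same experiments with low-dose AA. Within each experiment the treated array was higher, by 1.37, 1.47 and 1.56, whereas across experiments the groups overlapped, because experiment 1 was low in both conditions. The mean difference of 1.47 is a 2.76-fold higher signal. As the RNA came from whole cultures, more cells with CCL1 and more CCL1 RNA per cell cannot be told apart. Without the experiment as a block the difference did not pass the threshold of an unadjusted p under 0.001 (95% interval 0.04 to 2.89, adjusted p = 0.9999 by limma), and with it the difference passed (95% interval 0.99 to 1.94, or 1.99-fold to 3.85-fold, adjusted p = 0.308). Without the block the value was 0.78 without untreated replicate 1 and 2.20 without low-dose replicate 1. With the block it was 1.52 (95% interval 1.21 to 1.82) without experiment 1 and 1.42 (95% interval 0.84 to 1.99) without experiment 3, and both passed. Without experiment 2 it was 1.47 (95% interval 0.78 to 2.15) and did not pass.

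CCL1 was also higher at the other doses, at 9.11, 10.64 and 10.30 with the intermediate and 9.55, 10.69 and 10.86 with the high dose. In IFN-α-treated cells it was 7.95, 8.95 and 9.01. The direct difference of low minus high dose was -0.20 (95% interval -0.67 to 0.28 with the block), so a level up to 0.67 lower or 0.28 higher than at the high dose lies within the interval. All 3 doses share the untreated arrays, and their differences from untreated cells are therefore not independent of each other.

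**Figure D1:**
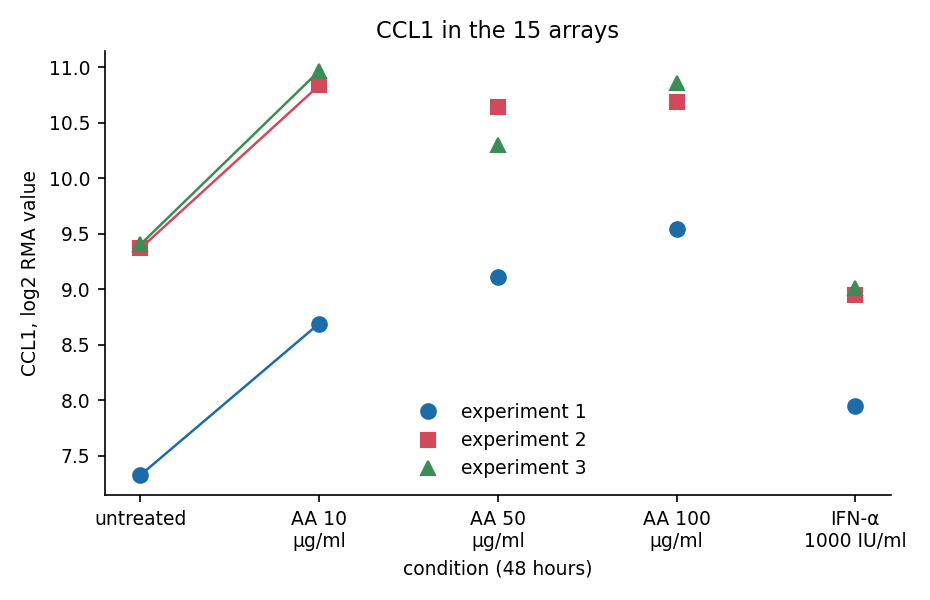
Log2 level of CCL1 (y-axis) in each of the 15 arrays by condition (x-axis), with a marker and colour for each experiment and lines that join the untreated and low-dose arrays of an experiment. The 3 lines rise by 1.37 to 1.56, and experiment 1 is lowest in every condition.

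Of 21 chemokine genes and receptors measured, 9 had a mean difference above 0 and 12 below, with a median of -0.01, against 1.47 for CCL1. CXCL10, which attracts activated T cells, was 7.27, 7.87 and 7.88 untreated and 7.64, 8.25 and 8.54 at the low dose, a difference of 0.47 (95% interval -0.06 to 0.99). CCL2, which attracts monocytes, was 6.24, 6.69 and 6.77 untreated and 6.47, 7.01 and 7.12 treated, a difference of 0.30 (95% interval -0.07 to 0.66). Both were higher in all 3 experiments, and neither passed the threshold with or without the block. CCR8, the receptor of CCL1, had differences of 0.07, -0.06 and 0.01, with a mean of 0.01 that turned to -0.032 after cyclic loess normalization.

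Across the array, few clusters passed the threshold of the study's methods, an unadjusted p under 0.001, between low-dose AA and untreated cells. It was passed by 6 of 28926 clusters (0.0207%), of which 1 was higher (0.00346%) and 5 were lower (0.0173%), where 28.9 are expected if nothing changes. Limma called 0 clusters after adjustment at 0.05 (smallest adjusted p = 0.9999), while 735 (2.54%) stood at an unadjusted p under 0.05, 303 of them higher (1.05%) and 432 lower (1.49%). With the experiment as a block 18 clusters passed 0.001 (0.0622%), 6 higher (0.0207%) and 12 lower (0.0415%), and 5 of the 6 were among them. The smallest adjusted p was then 0.308, and 1325 clusters (4.58%) stood at an unadjusted p under 0.05, 494 higher (1.71%) and 831 lower (2.87%). Of 31 models fitted for this comparison, 2 had a cluster at an adjusted p under 0.05, and it was CCL1 in both. These were the model of the 6 compared arrays alone with the block (29 clusters past 0.001, CCL1 at an adjusted p = 0.0299) and the unblocked model without experiment 1 (CCL1 at an adjusted p = 0.0412). The 95% interval of the difference lay within 0.5 on either side of 0 for 85.2% of clusters and within 1 for 98.7%. In all, 122 clusters had a mean difference over 0.5 in size, and CCL1 and a cluster without a symbol were the only 2 over 1. For each of 74 named genes the unblocked adjusted p was 0.9999, and with the block it was 0.308 to 0.9997, so single genes are given below by their values and intervals.

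The named gene past the threshold was CRHR2 (cluster 8138865), a receptor of corticotropin-releasing hormone and the urocortins. It was 5.93, 5.89 and 5.85 in untreated cells and 6.18, 6.13 and 6.24 at the low dose. The groups did not overlap, as was so for 6.69% of all clusters in this direction. The mean difference was 0.29 (95% interval 0.14 to 0.44), a 1.22-fold higher signal (adjusted p = 0.9999 by limma). With the block it did not pass, and neither did it without any 1 of the 6 arrays or of the 3 experiments. The difference from untreated cells was 0.13 at the intermediate dose and 0.10 at the high dose, and that of low minus high dose was 0.19 (95% interval 0.05 to 0.34).

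The 5 clusters that passed with lower values carry no gene symbol in the array annotation. Cluster 8140035 went from 7.21, 7.17 and 6.92 to 6.29, 6.38 and 6.19, a mean change of -0.82 (95% interval -1.17 to -0.46). Cluster 7931926 went from 8.61, 8.37 and 8.33 to 7.95, 7.78 and 7.40, a change of -0.73 (95% interval -1.05 to -0.42). Treated and untreated arrays of both did not overlap, a separation that 4.88% of all clusters had in this direction. Cluster 7966343 (-0.81) and cluster 7932211 (-0.38) were likewise separate. Cluster 8042157 (-0.85) was separate too, from a level below the lower quartile of every untreated array. The 5 clusters had differences of -0.73 to -0.31 from untreated cells at the intermediate and of -0.61 to -0.20 at the high dose.

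**Figure D2:**
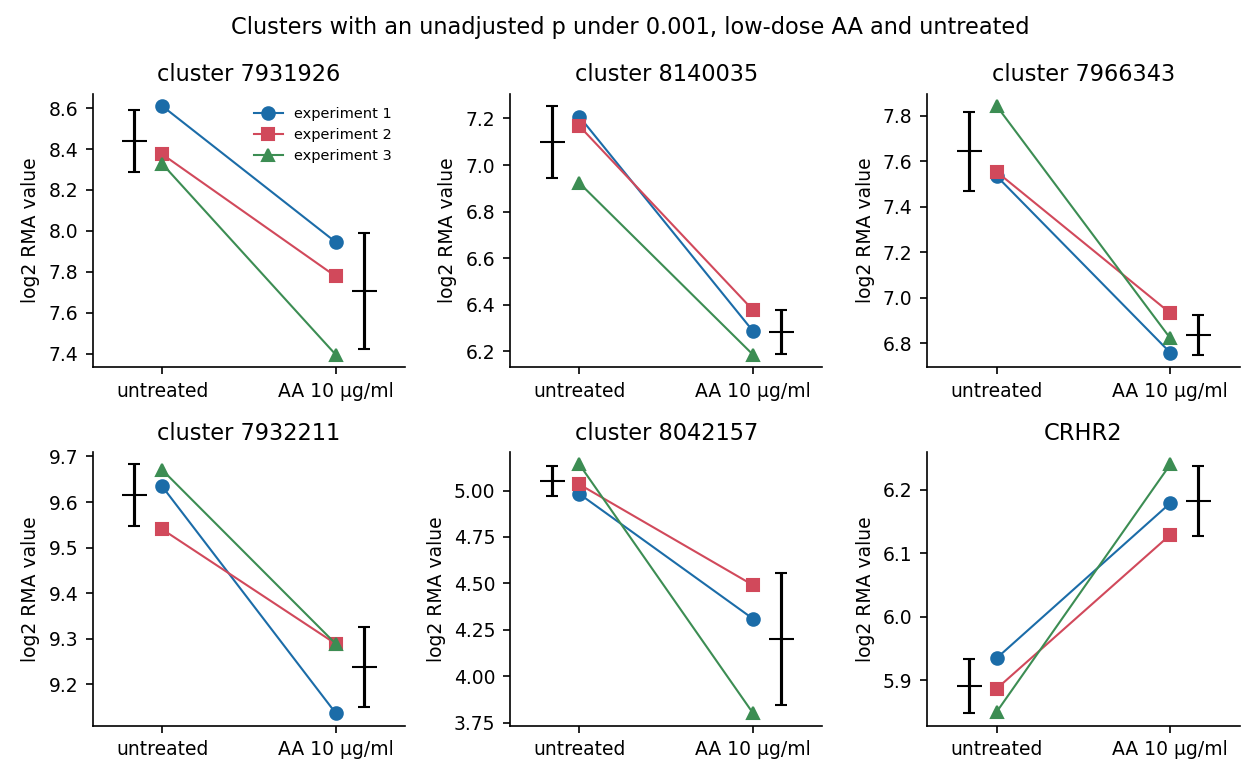
Log2 levels (y-axis) of the 6 clusters with an unadjusted p under 0.001 in untreated and low-dose cells (x-axis), with lines that join the arrays of an experiment and black bars for the mean and SD (n = 3). In each panel the 3 lines run the same way and the groups do not overlap. The y-axes do not start at 0 and differ between panels.

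With the block, 5 clusters with exactly 1 symbol passed, and besides CCL1 they were LIFR, ERCC6L2, SLC25A27 and TMC7. LIFR, the receptor of leukaemia inhibitory factor, was 6.19, 5.62 and 5.84 untreated and 5.63, 5.31 and 5.07 at the low dose, a difference of -0.54 (95% interval with the block -0.73 to -0.36, adjusted p = 0.308 by limma). ERCC6L2, a helicase-like protein of DNA repair, was 8.05, 7.65 and 7.90 untreated and 7.80, 7.31 and 7.23 treated in cluster 8156581, a difference of -0.42 (with the block -0.60 to -0.23), and its other 2 clusters differed by -0.31 and -0.15. SLC25A27, a mitochondrial carrier of the uncoupling protein group, was 5.93, 6.30 and 6.19 untreated and 5.48, 6.03 and 5.79 treated, a difference of -0.37 (with the block -0.56 to -0.19). For these 3 genes the experiments lay at different levels in both conditions, so that treated and untreated values overlapped although each pair differed the same way. TMC7, a transmembrane channel-like protein, was 4.89, 4.78 and 4.86 untreated and 5.13, 5.18 and 5.26 treated, at a level below the lower quartile of the untreated arrays. Its groups did not overlap, as was so for 6.69% of all clusters in this direction. Its difference was 0.35 at the low and 0.38 at the high dose, and the direct difference was -0.03 (95% interval -0.21 to 0.15).

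The next genes by p did not pass the threshold with or without the block and are given as values. Each had the same direction in all 3 experiments, which was a condition of being listed and held for 15.8% of all clusters upward and 13.6% downward. Higher in value at the low dose were MMD2 (0.28), DSC1 (0.33), a desmosomal cadherin, CDK2AP1 (0.26), a binding partner of the cell cycle kinase CDK2, APOL3 (0.27), an apolipoprotein L, AANAT (0.29), an enzyme of melatonin synthesis, and LOC286359 (0.44). CDK2AP1, the brightest of these, was 11.37, 11.34 and 11.50 untreated and 11.65, 11.59 and 11.75 treated. MMD2 had nearly equal differences of 0.28, 0.26 and 0.30. Lower in value were the zinc finger genes ZNF347 (-0.48) and ZNF117 (-0.35), RUFY2 (-0.35), an adaptor of endosomal traffic, the pseudogene SEPTIN7P13 (-0.66 and -0.65 in a pair of clusters), PGBD1 (-0.25), APOOL (-0.28), a subunit of the MICOS complex of the inner mitochondrial membrane, and the antisense RNA DIAPH2-AS1 (-0.28). ZNF347 was 6.08, 6.01 and 5.99 untreated and 5.55, 5.66 and 5.42 treated. DSC1, LOC286359, APOOL and DIAPH2-AS1 lay below the lower quartile of the untreated arrays.

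Sizes were also read within experiments. A difference over 0.5 in size was found for 835 clusters in experiment 1, 253 in experiment 2 and 1184 in experiment 3, and for 10 clusters in all 3 experiments with 1 sign, of which only CCL1 was higher. At 0.4 the count was 22, with 7 higher and 15 lower, and those with exactly 1 symbol were CCL1, DPPA3, MIR186, SNORD58A, SNORD116-18, SNORD116-6 and SCARNA9. DPPA3, a gene of germ cells and early embryos, was 5.37, 5.50 and 5.48 untreated and 5.93, 5.90 and 5.95 treated, a difference of 0.48 (95% interval 0.12 to 0.85). MIR186 was 6.31, 6.39 and 6.36 untreated and 5.54, 5.94 and 5.83 treated, a difference of -0.58 (95% interval -1.06 to -0.11). Its groups did not overlap, as was so for 4.88% of all clusters in this direction. SCARNA9, a guide RNA of Cajal bodies, differed by -0.54, -0.61 and -0.57. None of these 3 passed the threshold. The largest mean fall in value, -1.15 at cluster 7916016, which has no symbol, was uneven, with differences of -2.04, -0.83 and -0.60. Across clusters, the differences of experiments 2 and 3 had a Pearson correlation of 0.342, against -0.0066 for experiments 1 and 2 and 0.024 for experiments 1 and 3. Clusters are not independent replicates, and the pair that correlates is the pair that carries the same date. In the brightest 25% of clusters the values were 0.561, -0.050 and -0.144.

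Small nucleolar RNAs, which guide the chemical modification of ribosomal and other RNAs, mostly had lower values at the low dose. All 20 SNORD116 RNAs, a C/D family from an imprinted cluster, had a mean difference below 0, as did 47.7% of all clusters. Their median was -0.24 (-0.08, -0.18 and -0.46 by experiment), 12 of 20 were lower in every experiment, and 5 of 20 stood lower at an unadjusted p under 0.05, against 13.6% and 1.49% of all clusters. None passed the threshold. SNORD116-25 was 5.36, 5.81 and 5.59 untreated and 5.02, 5.34 and 5.28 treated, a difference of -0.37 (95% interval -0.61 to -0.13). SNORD116-18 was 4.45, 5.03 and 5.24 untreated and 3.84, 4.40 and 4.22 treated, a difference of -0.76 (95% interval -1.28 to -0.24). Both were lower in every experiment without overlap of the groups, a separation that 4.88% of all clusters had in this direction. These RNAs are near copies of each other, so probes may be shared and the members are not separate measurements. Of 95 other C/D RNAs 73 were below 0 (median -0.12, 35 lower in all 3 experiments), and of 61 H/ACA RNAs 49 were (median -0.11, 22 in all 3 experiments). SNORD54 (-0.43), SNORD45C (-0.42) and SNORD58A (-0.60) of the first group and SNORA3B (-0.40) of the second had no overlap between treated and untreated arrays, against the same 4.88% of all clusters. Without 1 array or experiment the medians ranged from -0.378 to -0.153 for SNORD116, from -0.198 to -0.062 for the other C/D RNAs and from -0.146 to -0.081 for the H/ACA RNAs. The SNORD116 median was -0.31 at the intermediate and -0.59 at the high dose. The mean level of the SNORD116 list was 6.32, 6.48 and 6.53 in the untreated and 6.22, 6.19 and 6.07 in the low-dose arrays. In the IFN-α arrays it was 6.45, 6.27 and 6.17, so lower values in experiments 2 and 3 were not particular to AA. Genes for cytosolic ribosomal proteins had a median of -0.03, with 37 of 60 below 0.

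The median difference of genes of cholesterol and fatty acid synthesis was below 0 in experiments 2 and 3 and above 0 in experiment 1. All 22 measured genes had a mean difference below 0, as did 47.7% of all clusters. The median of the list was -0.21, but by experiment the medians were 0.04, -0.14 and -0.55. Of the 22, 9 were lower in all 3 experiments, against 13.6% of all clusters. Without low-dose replicate 3 the unblocked median was 0.00042. None of the 22 stood at an unadjusted p under 0.05 without the block, against 2.54% of all clusters, so their unblocked intervals included 0. With the block 6 did, all lower, against 2.87% of all clusters. STARD4, a carrier of cholesterol between membranes, was 10.52, 10.44 and 10.55 untreated and 10.29, 10.22 and 9.97 treated, a difference of -0.34 (95% interval with the block -0.67 to -0.02). IDI1, an isomerase of the mevalonate pathway, was 11.32, 10.88 and 10.88 untreated and 11.17, 10.67 and 10.33 treated, a difference of -0.31 (with the block -0.53 to -0.08). Both, like SC5D, a late enzyme of cholesterol synthesis (-0.15, -0.17 and -0.55), differed most in experiment 3. The mean level of the list was 10.34, 9.98 and 10.05 in the untreated and 10.35, 9.85 and 9.52 in the low-dose arrays, and it was 10.21, 9.83 and 9.28 at the high dose.

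The targets of the hypoxia-inducible factors and the glycolytic enzymes likewise had a median below 0 in experiments 2 and 3 and above 0 in experiment 1. Of 36 genes 31 had a mean difference below 0, against 47.7% of all clusters. The median of the list was -0.12, and the medians by experiment were 0.12, -0.13 and -0.40. Only 2 of the 36 were lower in all 3 experiments, against 13.6% of all clusters. Without low-dose replicate 3 the median of the list was -0.0052. BNIP3, a mitochondrial protein induced when oxygen is short, was 11.28, 11.18 and 11.28 untreated and 11.39, 10.87 and 9.57 treated, a difference of -0.64 (95% interval -1.48 to 0.21). P4HA1, the catalytic subunit of collagen prolyl hydroxylase and itself ascorbate-dependent, was 10.92, 10.42 and 10.59 untreated and 10.79, 10.15 and 9.43 treated, a difference of -0.52 (95% interval -1.22 to 0.18). KDM3A, a histone demethylase of the ascorbate-dependent family, was 10.05, 9.58 and 9.72 untreated and 10.01, 9.14 and 8.06 treated, a difference of -0.71 (95% interval -1.74 to 0.32). All 3 differed by more than 1 in experiment 3, and by less in the others. The mean level of the list was 10.12, 10.06 and 10.11 in the untreated and 10.24, 9.91 and 9.49 in the low-dose arrays.

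**Figure D3:**
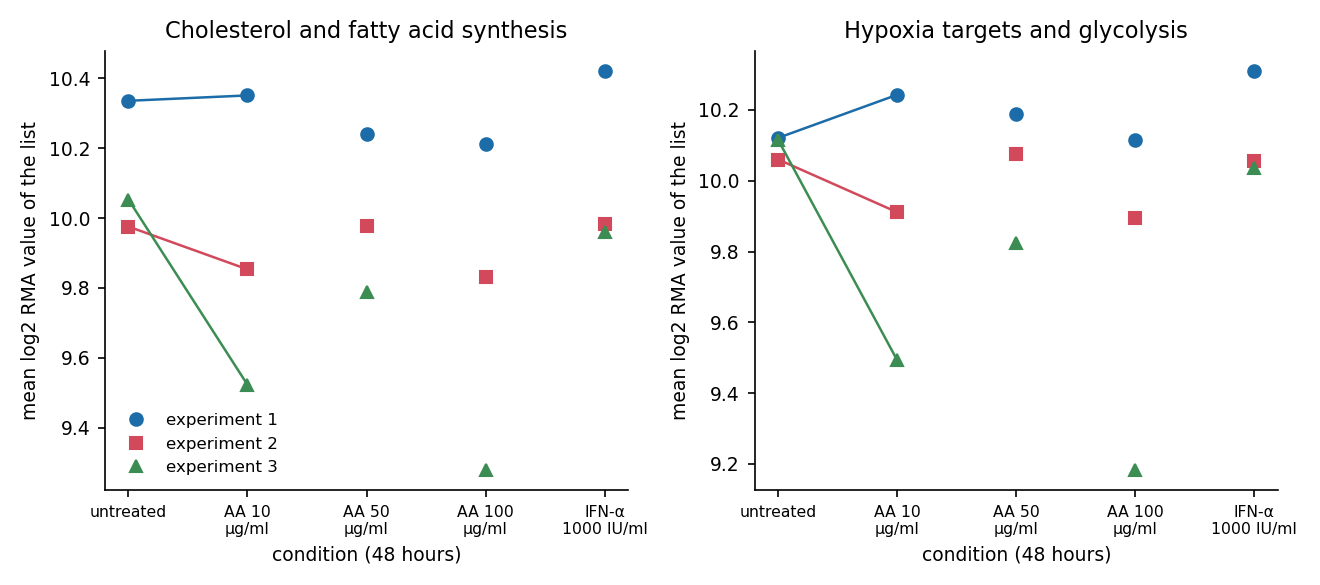
Mean log2 level (y-axis) of the 22 genes of cholesterol and fatty acid synthesis (left) and the 36 hypoxia targets and glycolytic enzymes (right) in each of the 15 arrays by condition (x-axis), with a marker for each experiment and lines that join untreated and low-dose arrays. The line of experiment 3 drops from 10.05 to 9.52 on the left and from 10.11 to 9.49 on the right, while that of experiment 1 does not drop.

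No gene that handles ascorbate itself passed the threshold, which only 0.0207% of all clusters passed. Of the 9 transporters of ascorbate and dehydroascorbate, 6 were above 0 and 3 below, with a median of 0.08. SLC23A2, the ascorbate transporter of most cells, was 8.89, 8.75 and 8.74 untreated and 8.76, 8.53 and 8.70 treated, a difference of -0.13 (95% interval -0.39 to 0.12). SLC23A1 differed by 0.00, 0.08 and 0.25 in experiments 1, 2 and 3, with a mean of 0.11 (95% interval -0.18 to 0.40). SLC2A1 differed by 0.10, -0.16 and -0.48, with a mean of -0.18 (95% interval -0.64 to 0.28). Without 1 array or experiment these means ranged from 0.037 to 0.166 for SLC23A1 and from -0.319 to -0.029 for SLC2A1. SLC2A3 was 9.02, 8.82 and 8.67 untreated and 9.03, 8.50 and 8.02 treated, a difference of -0.32 (95% interval with the block -0.56 to -0.08), with 0.00 in experiment 1. Without the block none of the 9 transporters stood at an unadjusted p under 0.05, against 2.54% of all clusters. The unblocked interval of SLC2A3 thus included 0. Among 13 genes that reduce oxidised ascorbate the median was 0.01, with GSTO1 at -0.15 and GLRX2 at 0.14. Of 46 ascorbate-dependent dioxygenases and relatives 35 were below 0, and 12 were lower in all 3 experiments, against 47.7% and 13.6% of all clusters. The median of the 46 was -0.09, or -0.0031, -0.07 and -0.19 by experiment, and it was -0.024 without low-dose replicate 3. KDM4C, a histone demethylase, differed by -0.25, -0.23 and -0.67 and KDM5B, another, by -0.06, -0.04 and -0.29. DBH, the copper enzyme that makes noradrenaline with ascorbate as its cofactor, went the other way, from 6.51, 6.80 and 6.70 to 6.82, 6.96 and 7.03, a difference of 0.26 (95% interval 0.05 to 0.48).

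Antioxidant enzymes and the pentose phosphate pathway had 26 of 34 genes above 0 (median 0.05), where 15141 of all 28926 clusters were above 0. GPX1, a glutathione peroxidase, was at 0.13, 0.12 and 0.17 by experiment. In iron handling 12 of 21 genes were above 0, and LTF, lactoferrin, was 5.43, 5.82 and 5.51 untreated and 5.97, 5.91 and 5.86 treated. The ATF4 list, genes of amino acid supply and stress, had 32 of 44 genes below 0 with a median of -0.07 (0.03, -0.07 and -0.15 by experiment), and 14 were lower in all 3 experiments. Of all clusters 47.7% were below 0 and 13.6% were lower in all 3 experiments. ASNS, whose promoter is printed above, was 9.52, 9.29 and 9.46 untreated and 9.30, 9.05 and 9.23 treated, a difference of -0.23 (95% interval -0.43 to -0.02). It was the 1 gene of the ATF4 list at an unadjusted p under 0.05, as were 2.54% of all clusters. Its differences by experiment, -0.23, -0.23 and -0.22, were the most even of the genes described here with that list. SLC7A11, the cystine importer that feeds glutathione synthesis, differed by -0.41, -0.10 and -0.15, and ATF3, a stress-induced transcription factor, by -0.03, -0.34 and -0.11.

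Of 46 interferon-stimulated genes 28 were below 0 (median -0.04), against 47.7% of all clusters. SAMD9 (-0.14, -0.30 and -0.97) and SAMD9L (-0.14, -0.20 and -0.44), which restrain cell growth, were lower in all experiments, XAF1 (0.22) was higher in all, and IFI44L was at 0.22, -0.02 and 0.26. Among genes of cell death, CASP8, the initiator caspase of death receptors, differed by -0.19, -0.22 and -0.23. FAS, a death receptor, differed by -0.13 (95% interval -0.29 to 0.03), and TNFSF10, the ligand TRAIL, by -0.16 (95% interval -0.34 to 0.02). The BCL2 family had a median of 0.04 over 18 genes and the caspases and their partners -0.01 over 21. No member of either list stood at an unadjusted p under 0.05, where 2.54% of all clusters stood. Of 39 cell cycle and DNA replication genes 18 were above 0 and 21 below, and their median of -0.02, like the -0.02 of 21 p53 targets, changed sign after cyclic loess normalization. The T cell lists were mixed. Of 27 HTLV-1-transformed T cell markers 12 were above 0 and 15 below (median -0.03), of 24 genes of the T cell receptor complex and its signalling 11 were above and 13 below (median -0.01), and both medians changed sign when single arrays or experiments were left out. In all 3 experiments 4 of the 27 were higher and 7 lower, and 1 of the 24 was higher and 3 lower. Of all clusters 15.8% were higher and 13.6% lower in all 3 experiments. Among the lower members were ICOS (-0.22), a costimulatory receptor below the lower quartile here, CD80 (-0.22), a costimulatory ligand, and TXK (-0.41), a T cell kinase. Of 29 AP-1 and immediate early genes 16 were above 0 and 13 below, with a median of 0.02 (0.13, -0.01 and -0.11 by experiment) that changed sign without experiment 1 and without untreated replicate 1. Of the 29, 6 were higher in every experiment, among them EGR4 (0.26) and FOSB (0.37), and 1 was lower. None of ICOS, CD80, TXK, EGR4 and FOSB passed the threshold.

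**Figure D4:**
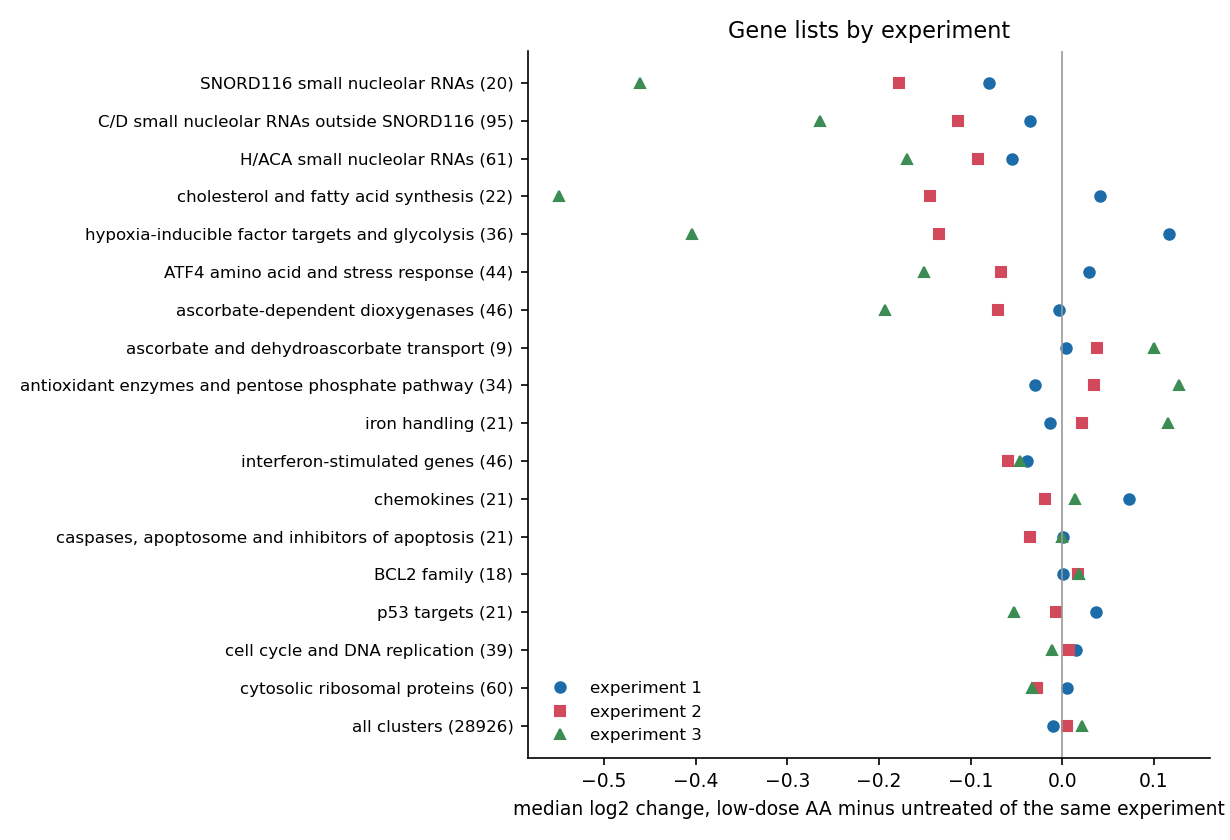
Median log2 difference between low-dose and untreated arrays of the same experiment (x-axis) for the gene lists and all clusters (y-axis, number of clusters in parentheses), with a marker for each experiment. The SNORD116 list lies below 0 in all 3 experiments, and the cholesterol and hypoxia lists lie below 0 in experiments 2 and 3 and at 0.04 and 0.12 in experiment 1.

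Low-dose and high-dose AA were compared directly, which uses no untreated array in the contrast. Past an unadjusted p of 0.001 stood 24 clusters (0.083%), 7 with higher (0.0242%) and 17 with lower values (0.0588%) at the low dose, and with the block 69 (0.239%). With or without the block, 28.9 are expected if nothing differs. Limma called 0 after adjustment at 0.05 (smallest adjusted p = 0.697), while 1926 clusters (6.66%) stood at an unadjusted p under 0.05. Of the 24, 4 had exactly 1 symbol. INHBE, an activin subunit that ATF4 induces, was 7.95, 7.92 and 7.97 at the low dose, against 7.48, 7.68 and 7.12 at the high dose, a difference of 0.52 (95% interval 0.25 to 0.78). Untreated cells had 7.92, 8.28 and 8.24, which overlapped the low-dose values. USP27X-DT, a divergent transcript, was 6.18, 6.30 and 6.21 against 5.78, 5.81 and 5.91, a difference of 0.40 (95% interval 0.22 to 0.57), and its untreated values of 6.02, 5.98 and 5.93 lay between the doses. MYL11, a myosin light chain, differed by 0.32 (95% interval 0.17 to 0.48) and PLA2G10, a secreted phospholipase A2, by -0.66 (95% interval -0.95 to -0.37). With the experiment as a block 18 had exactly 1 symbol, and besides INHBE those that the study lists for high-dose AA are named here. CHAC1, a glutathione-degrading enzyme (0.51), and the chloride channel BEST1 (0.38) were also higher at the low dose than at the high dose. The interleukin-23 receptor IL23R (-0.56) and the activation antigen CD69 (-0.46) were lower. The study listed these genes, INHBE and SLC7A11 from the same high-dose arrays, so their differences between the doses are not independent evidence. At the low dose CHAC1 was 8.67, 8.83 and 8.75 against 8.63, 8.99 and 8.94 untreated, and IL23R was 5.84, 6.03 and 6.13 against 5.87, 5.49 and 5.90 untreated, so both overlapped the untreated values. For SLC7A11 the difference of low minus high dose was 0.42 (95% interval 0.17 to 0.66), which did not pass. Without high-dose replicate 3 the counts were 19 and, with the block, 41.

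Between low-dose and intermediate-dose AA 1 cluster passed the threshold (0.00346%), and 2 did with the block (0.00691%), where 28.9 are expected if nothing differs. The cluster was the pseudogene ADCY10P1, at 6.52, 6.07 and 6.81 with the low and 5.76, 5.85 and 5.63 with the intermediate dose, a difference of 0.72 (95% interval 0.36 to 1.08), with an adjusted p = 1 by limma. In all, 206 clusters (0.712%) stood at an unadjusted p under 0.05.

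**Figure D5:**
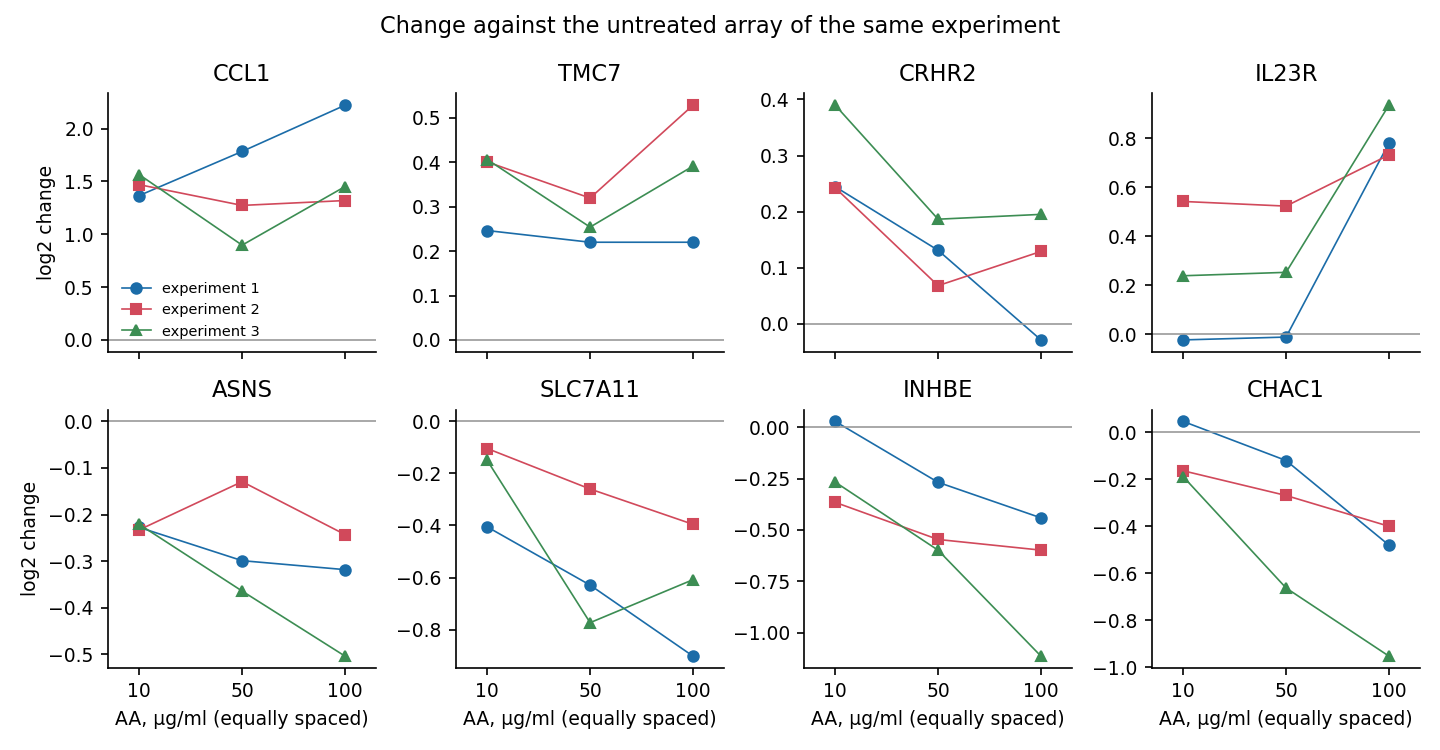
Log2 difference (y-axis) from the untreated array of the same experiment at 10, 50 and 100 µg/ml AA (x-axis, equally spaced) for 8 genes, with a line for each experiment. CCL1 and TMC7 have mean differences of 1.47 and 0.35 at 10 µg/ml and 1.66 and 0.38 at 100 µg/ml, whereas INHBE and CHAC1 have -0.20 and -0.10 at 10 µg/ml and -0.72 and -0.61 at 100 µg/ml.

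The study lists genes for high-dose AA, and these were read at the low dose. They were chosen on arrays that share the untreated samples used here, so their direction at the low dose is not independent evidence. Of the lowered genes, 16 were measured under 1 symbol, all 16 were below 0 at the low dose (median -0.20, 11 lower in all 3 experiments), and 6 stood at an unadjusted p under 0.05, against 1.49% of all clusters. Of 16 raised genes 15 were above 0 (median 0.18, 11 higher in all 3 experiments), and 5 stood at an unadjusted p under 0.05, against 1.05% of all clusters. Of all clusters 13.6% were lower and 15.8% higher in all 3 experiments. At the high dose the medians of the lowered and raised genes were -0.49 and 0.43. By experiment they were -0.35, -0.40 and -0.67 for the lowered and 0.37, 0.35 and 0.47 for the raised genes. Among the lowered genes, NRXN3, a neuronal adhesion molecule, was 7.64, 7.52 and 7.75 untreated and 7.30, 7.26 and 7.13 at the low dose, and SNORD116-13 (-0.54) and SNORD116-29 (-0.32) were lower in all experiments. Among the raised genes, TAS2R9, a taste receptor (0.24), OPRPN (0.30) and RPS24, a ribosomal protein (0.25), were higher in all experiments. SNORD116-13, TAS2R9 and OPRPN lay below the lower quartile of the untreated arrays.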

How the data were processed

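RNA of MT-2 cells from 3 experiments was measured on Affymetrix whole-transcript arrays. The values are log2 levels that the authors made by RMA with the xps package and deposited, and no further normalization was applied. Of 28926 clusters, 19310 carry 1 gene symbol, 1752 several and 7864 none in the array annotation, and genes were named only from clusters with exactly 1. The annotation names no genome build, and positions and sequences come from RefSeq (GRCh38.p14). Raw intensities were not analysed here.

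Comparisons used limma 3.58.1 in R 4.3.3, in 1 model over 15 arrays with a mean for each condition. The methods of the paper mention limma but give no design, and no block was used in the main model (10 residual and 3.91 prior degrees of freedom). Tests are two-sided, a cluster passed at an unadjusted p under 0.001, and p was adjusted by the method of Benjamini and Hochberg across the array. The replicate number is the experiment tag in the labels, and it pairs the arrays because each tag marks 1 experiment that held every condition. On the values, the deviations of paired untreated and low-dose arrays from their group means correlated at 0.210, 0.261 and -0.030. Between arrays of different experiments the correlations ran from -0.297 to 0.133, and the value of the pair of experiment 3 lay within that range. The block result is given where it changes a call, and for some other genes the interval with the block is given and marked as such. The model was tested on simulated data. With 3 arrays per condition, their number sets the precision.

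The gene lists and the genes named were chosen with earlier results of these data known. The rule takes called clusters, the 8 genes per direction with the smallest p and 1 sign in all experiments, up to 3 genes per list, and genes that the study names. Genes called only with the block or between doses, and those with differences over 0.4 in each experiment, were added after their values were seen. For lists, a gene is its cluster with the highest mean. Alternatives were other blocks, thresholds, filters, variance models, cyclic loess, array weights, and leaving out each array and experiment. Plots used Python 3.11.15 and matplotlib 3.10.9.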

Additional observations from a re-analysis of the deposited data

How the results depend on the processing

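The count of clusters that passed the threshold between low-dose AA and untreated cells (6) depended on the model. It was 18 with the replicate block, 12 with a random replicate block, 24 in a model of the compared groups alone, 29 there with the replicate block, 2 with only clusters of 1 symbol, 97 with array weights, 16 without high-dose AA array 3, 41 at an unadjusted p under 0.005 and 0 at an adjusted p under 0.05. Alternatives chosen after seeing the data gave, with the replicate block, 28 after cyclic loess, 17 without the dimmest 25% of clusters, 57 without high-dose AA array 3, and 14 to 19 without 1 experiment. Leaving out 1 array or 1 experiment without the block gave from 1 when low-dose replicate 3 was left out to 19 when low-dose replicate 2 was, with 2 for untreated replicate 3. Between low and high dose, the count (24) was 69 with the replicate block, 57 with a random replicate block, 0 for the compared groups alone, 11 without the dimmest 25% of clusters, 9 with only clusters of 1 symbol, 1210 with array weights, 156 at an unadjusted p under 0.005 and 0 at an adjusted p under 0.05. With the replicate block it was also 84 after cyclic loess, 48 without the dimmest 25% of clusters, 41 without high-dose AA array 3, and 28, 37 and 66 without experiments 1, 2 and 3. Leaving out arrays or experiments without the block gave from 10 (low-dose replicate 1) to 173 (high-dose replicate 2), with 97 for high-dose replicate 1, 11 and 15 for low-dose replicates 2 and 3. Between low and intermediate dose, the count (1) was 2 with the replicate block, 2 for the compared groups alone, 13 there with the replicate block, 18 with array weights, 8 with the replicate block and 2 without it when high-dose AA array 3 was left out, 4 at an unadjusted p under 0.005, 0 at an adjusted p under 0.05, 0 to 2 without 1 array or experiment and 0 to 8 without 1 experiment with the replicate block.

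Of 78 genes and clusters named, CCR8 alone changed sign, to -0.032 after cyclic loess and to between -0.052 and 0.060 without 1 array or experiment (-0.020 with the replicate block without experiment 1). Of the 39 list medians 23 kept their sign under every alternative. The cause of these shifts was not tested. Clusters below the lower quartile may be background, and 3 arrays per condition leave small differences undetected.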
